A study of Mus musculus with 6 samples.

Results

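The genes described here encode the enzymes that break down the branched-chain amino acids leucine, isoleucine and valine, carry propionate into the citric acid cycle, and use ketone bodies, with a few enzymes of GABA and lysine breakdown. They were chosen by gene name, as 33 named genes of the deposited table of 13962 genes, and all 33 were found, each on a single row. The libraries were made from beige adipocytes in culture, that is, fat cells derived from inguinal white fat that share heat-producing genes with brown fat. The treated cells carried the genotype TLE3F/F CreERT2 on a C57BL/6 background and were given 4-hydroxytamoxifen (500 nM) for 24 hours from day 4 of differentiation, which activates the Cre recombinase so that it can delete the floxed gene of TLE3, a corepressor of the Groucho family (3 libraries, knockout 1 to 3). The controls were the same TLE3F/F CreERT2 cells given ethanol (3 libraries, control 1 to 3). Cells of both groups were preadipocytes immortalized with the large T antigen and were differentiated with insulin (20 nM), T3 (1 nM), rosiglitazone (1 uM), which activates PPARγ, and an inducing cocktail, and all were harvested on day 10. The promoter that drives Cre is not given in the labels, nothing says that the 3 libraries of a group came from separate cultures, and no cells without Cre were given tamoxifen. The p-values therefore cover only the spread among these 6 libraries, which could be technical, and an effect of tamoxifen or of Cre cannot be told apart from one of the deletion.

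Branched-chain amino acids are first transaminated to keto acids, by a cytosolic enzyme (Bcat1) or a mitochondrial one (Bcat2), and the keto acids are then committed to oxidation by the branched-chain keto acid dehydrogenase complex, which a kinase switches off and a phosphatase switches on. From there leucine yields acetyl-CoA and acetoacetate, while valine and isoleucine yield propionyl-CoA, which biotin- and cobalamin-dependent enzymes turn into succinyl-CoA. Adipocytes take up and oxidise branched-chain amino acids as they differentiate, and brown fat is known to use them as fuel during heat production.

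The table gave 15933996, 14606228 and 15137788 counts in knockout 1 to 3 and 17671845, 14832434 and 19294632 counts in control 1 to 3. Tle3 itself went against its label. It stood at 286.9, 288.9 and 294.2 CPM (counts scaled to effective library size) in the libraries labelled knockout, against 151.4, 151.3 and 152.1 CPM in the controls, a 1.91-fold difference (edgeR adjusted p 3.54e-07). Counts over the whole gene take in undeleted exons and cannot check the deletion, so the tamoxifen group appears below as the libraries labelled knockout. Why Tle3 was higher was not tested, nor whether the group labels are right. Of 12 adipocyte markers 5 rose and 0 fell at an edgeR adjusted p under 0.05, where 6.91% of all 13192 tested genes rose and 5.44% fell. At an unadjusted edgeR p under 0.05 there were 10 markers, 9 of them higher, a count not made over all genes. DESeq2 called 7 of the markers, and over 12879 genes it called 750 higher and 538 lower. The 5 markers that rose in edgeR were Lep (2.05-fold), Retn (1.57-fold), Dgat2 (1.32-fold), Cd36 (1.21-fold) and Lipe (1.18-fold). Fabp4 stood at 5387 ± 659 CPM in the libraries labelled knockout and 4514 ± 657 CPM in the controls, with overlapping groups (SD, n = 3 each; edgeR adjusted p 0.165). Of 10 brown and beige markers 7 rose and 1, Elovl3, fell (log2 −0.66, edgeR adjusted p 0.0469). Ucp1, which rose, stood at 102.9 ± 7.57 CPM in the libraries labelled knockout and 70.9 ± 8.35 CPM in the controls (SD, n = 3 each). Of 8 macrophage markers 3 were tested and had a summed level of 4.74 to 5.39 CPM in the libraries labelled knockout and 3.66 to 4.75 CPM in the controls, with 0 called by edgeR, DESeq2 or limma-voom and 1 at an unadjusted edgeR p under 0.05. Of 7 endothelial markers 4 were in the table, and they summed to 3.53 to 4.30 CPM in the libraries labelled knockout and 2.30 to 3.83 CPM in the controls. Of the 2 that were tested, 0 were called by edgeR, DESeq2 or limma-voom. Tek was higher at an unadjusted edgeR p of 0.0257 (1.73-fold, adjusted p 0.120).

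Genes of this pathway were mostly higher in the libraries labelled knockout, by modest amounts. Of the 33 genes, 32 passed the filter on low counts, each with at least 57 counts in every library, and 12 rose and 1 fell at an adjusted p under 0.05 in edgeR's quasi-likelihood test. Over all 13192 genes tested, 6.91% rose and 5.44% fell. The estimate was positive for 28 of the 32 genes, or 87.5%, against 49.4% of all genes tested, and their median log2 fold change was 0.20, against 0.00 over all genes. In CPM, 17 of the 32 were higher in every library labelled knockout than in any control and 2 were lower, where 16.0% and 15.8% of all tested genes were. The sizes were small, from a log2 fold change of −0.30 for Bcat1 to 0.37 for Mmachc. Together the 33 genes took 0.407%, 0.424% and 0.427% of the counts in knockout 1 to 3, against 0.377%, 0.391% and 0.362% in control 1 to 3. The genes that rose numbered 6 without knockout 3, where 2.49% of all genes rose, 8 without knockout 2 (4.22%), 9 without control 1 (4.17%) and 10 without control 3 (4.69%). As these are bulk cultures, fewer cells of a type and less RNA per cell cannot be told apart.

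**Figure D1:**
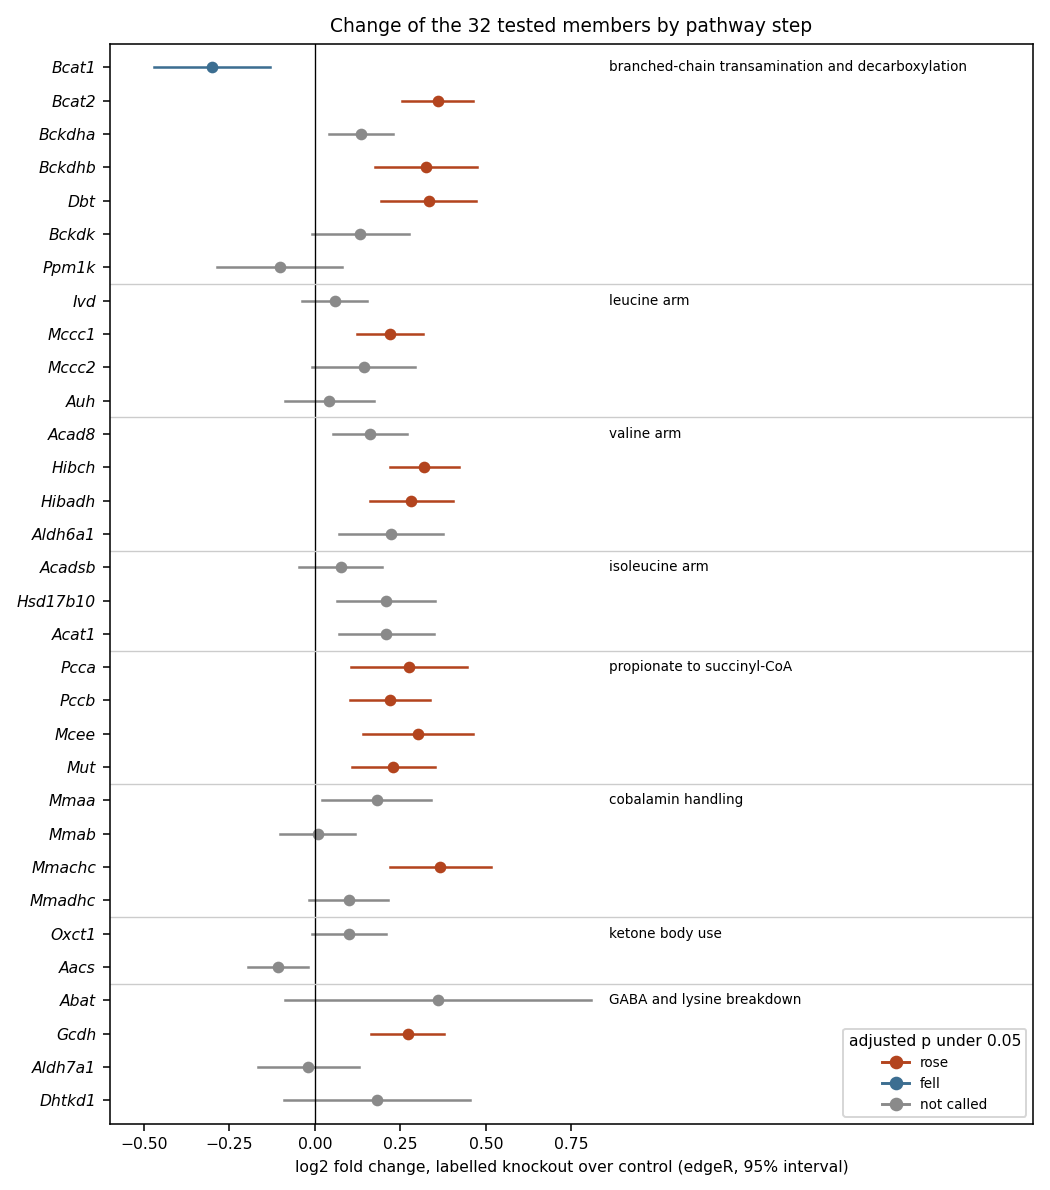
Log2 fold change of the 32 tested genes, libraries labelled knockout over controls, on the x axis, with 95% intervals computed from the SE. Genes are ordered down the page by step of the pathway. Of the 13 called genes, Bcat1 is the 1 that fell, at −0.30, and the other 12 lie between 0.22 and 0.37.

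The 2 aminotransferases moved in opposite directions. Bcat2, the mitochondrial enzyme, stood at 74.7, 77.5 and 79.2 CPM in the libraries labelled knockout, against 57.9, 62.3 and 60.4 CPM in the controls. The groups did not overlap, and the gene rose 1.28-fold (log2 0.36, SE 0.0475, edgeR adjusted p 0.00124), with a call in every alternative run. Bcat1, the cytosolic enzyme, stood at 31.0, 32.5 and 26.0 CPM in the libraries labelled knockout, against 37.3, 35.5 and 37.3 CPM in the controls. It fell by 0.30 on the log2 scale (SE 0.0776, edgeR adjusted p 0.0288), again with no overlap, although knockout 3 lay well below knockout 1 and 2. The call for Bcat1 was lost without knockout 3 (log2 −0.21, edgeR adjusted p 0.0983), control 1 (0.0995) or control 3 (0.0711). Within a library, Bcat2 had 2.41, 2.39 and 3.05 counts per count of Bcat1 in knockout 1 to 3, against 1.55, 1.76 and 1.62 in control 1 to 3. This ratio needs no scaling between libraries and was 1.58-fold higher in the libraries labelled knockout (exact two-sided permutation p = 0.1, the smallest that 3 against 3 libraries allow). It was 1 of 7 ratios chosen after the values were seen, and its p adjusted over the 7 was 0.14. Per length, in the authors' rounded FPKM, Bcat2 was at 19 to 20 in the libraries labelled knockout and 15 to 16 in the controls, and Bcat1 at 3 in each library labelled knockout and 4 in each control. These are whole numbers, so the step from 3 to 4 does not measure the size of the group difference.

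Promoter sequences from RefSeq (build GRCm38.p6, 300 bases around a start site, most of them upstream) were matched for 27 of the 33 genes. They were searched on both strands for CCCNNGGG, the core recognised by EBF factors, which is its own reverse complement, for TNAAGGTCA, an element bound by ERR receptors, and for the direct repeat of PPAR-RXR. The EBF core was found for 4 of the 27 genes (14.8%), Aldh6a1, Bcat2, Bdh1 and Pcca, against 15.4% of the 27025 genes in the RefSeq table. The ERR element was found for 0 of the 27, against 1.43% of all genes, and the PPAR-RXR repeat for 0, against 0.0481%. The windows of Bcat2 (chr7:45569903-45570202, + strand) and Pcca (chr14:122534078-122534377, + strand) are shown because they are those of called genes that hold the core, given in capitals. It starts 125 bases before the start site in Bcat2 (position -125) and at position -35 in Pcca, and each of these genes has another start site in RefSeq whose window lacks it.
Bcat2: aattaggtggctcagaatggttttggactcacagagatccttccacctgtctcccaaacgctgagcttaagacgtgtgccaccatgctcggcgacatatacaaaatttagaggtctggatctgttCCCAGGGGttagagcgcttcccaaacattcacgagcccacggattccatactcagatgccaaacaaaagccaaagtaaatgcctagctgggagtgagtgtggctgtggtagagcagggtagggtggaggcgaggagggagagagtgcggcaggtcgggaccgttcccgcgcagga
Pcca: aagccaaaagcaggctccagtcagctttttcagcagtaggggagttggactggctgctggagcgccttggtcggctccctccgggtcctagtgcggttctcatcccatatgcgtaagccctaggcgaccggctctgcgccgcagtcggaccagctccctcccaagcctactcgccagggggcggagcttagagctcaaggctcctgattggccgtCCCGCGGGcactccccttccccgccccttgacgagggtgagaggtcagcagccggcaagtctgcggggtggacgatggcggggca

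In the keto acid dehydrogenase complex, the E1 beta and E2 genes rose. Dbt, the E2 core that transfers the acyl group, stood at 196.8, 199.0 and 205.0 CPM in the libraries labelled knockout, against 162.2, 173.5 and 142.1 CPM in the controls. It rose 1.26-fold (log2 0.33, SE 0.0635, edgeR adjusted p 0.00762), and its controls were more spread than its libraries labelled knockout, with control 3 the lowest. Bckdhb, the E1 beta subunit, stood at 111.6, 128.2 and 116.1 CPM in the libraries labelled knockout, against 95.7, 102.2 and 86.6 CPM in the controls. It rose 1.25-fold (log2 0.32, SE 0.0675, edgeR adjusted p 0.0110), and both calls held in each of the 12 alternatives. Bckdha, the E1 alpha subunit, stood at 180.6, 182.2 and 185.0 CPM in the libraries labelled knockout, against 163.7, 174.5 and 161.1 CPM in the controls. Its groups did not overlap, but it did not pass the threshold (log2 0.13, SE 0.0429, edgeR adjusted p 0.0639), except without control 2 (0.0209). In GENCODE M21, 61.7% of its exon bases also lie under B3gnt8 on the opposite strand, and the strand setting of the counting is not given. B3gnt8 has no row among the deposited genes. Per count of Bckdha, Bckdhb had 0.618, 0.703 and 0.628 counts in the libraries labelled knockout and 0.585, 0.586 and 0.537 in the controls (exact two-sided permutation p = 0.1, adjusted over the 7 ratios 0.14).

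The genes that set the complex's activity were not called. Bckdk, the kinase that inactivates the complex, stood at 78.6, 88.1 and 90.8 CPM in the libraries labelled knockout, against 80.1, 82.3 and 72.5 CPM in the controls. The groups overlapped, since knockout 1 lay among the controls, and the 95% interval of the log2 fold change ran from −0.01 to 0.28 (edgeR adjusted p 0.210). Ppm1k, the phosphatase that reactivates the complex, stood at 21.9, 21.6 and 25.4 CPM in the libraries labelled knockout, against 26.6, 24.4 and 23.1 CPM in the controls. These groups overlapped too, with an interval from −0.29 to 0.08 (edgeR adjusted p 0.458). Set against each other within a library, Ppm1k had 0.279, 0.246 and 0.279 counts per Bckdk count in knockout 1 to 3, against 0.332, 0.296 and 0.319 in control 1 to 3. The ratio was lower in every library labelled knockout (exact two-sided permutation p = 0.1, adjusted over the 7 ratios 0.14). This p is the smallest possible here and all 7 ratios were chosen after the values were seen, so it does not establish a shift. Dbt had 2.51, 2.26 and 2.26 counts per Bckdk count in knockout 1 to 3, against 2.02, 2.11 and 1.96 in control 1 to 3, with the same p. In the authors' rounded FPKM the transcripts of the complex were above those of its regulators in every library, with Bckdha at 102 to 103, Bckdhb at 75 to 85 and Dbt at 60 to 61 in the libraries labelled knockout, where Bckdk was at 26 to 29 and Ppm1k at 4 to 5. In the controls the values were 92 to 98 for Bckdha, 59 to 68 for Bckdhb, 44 to 52 for Dbt, 24 to 27 for Bckdk and 4 to 5 for Ppm1k.

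**Figure D2:**
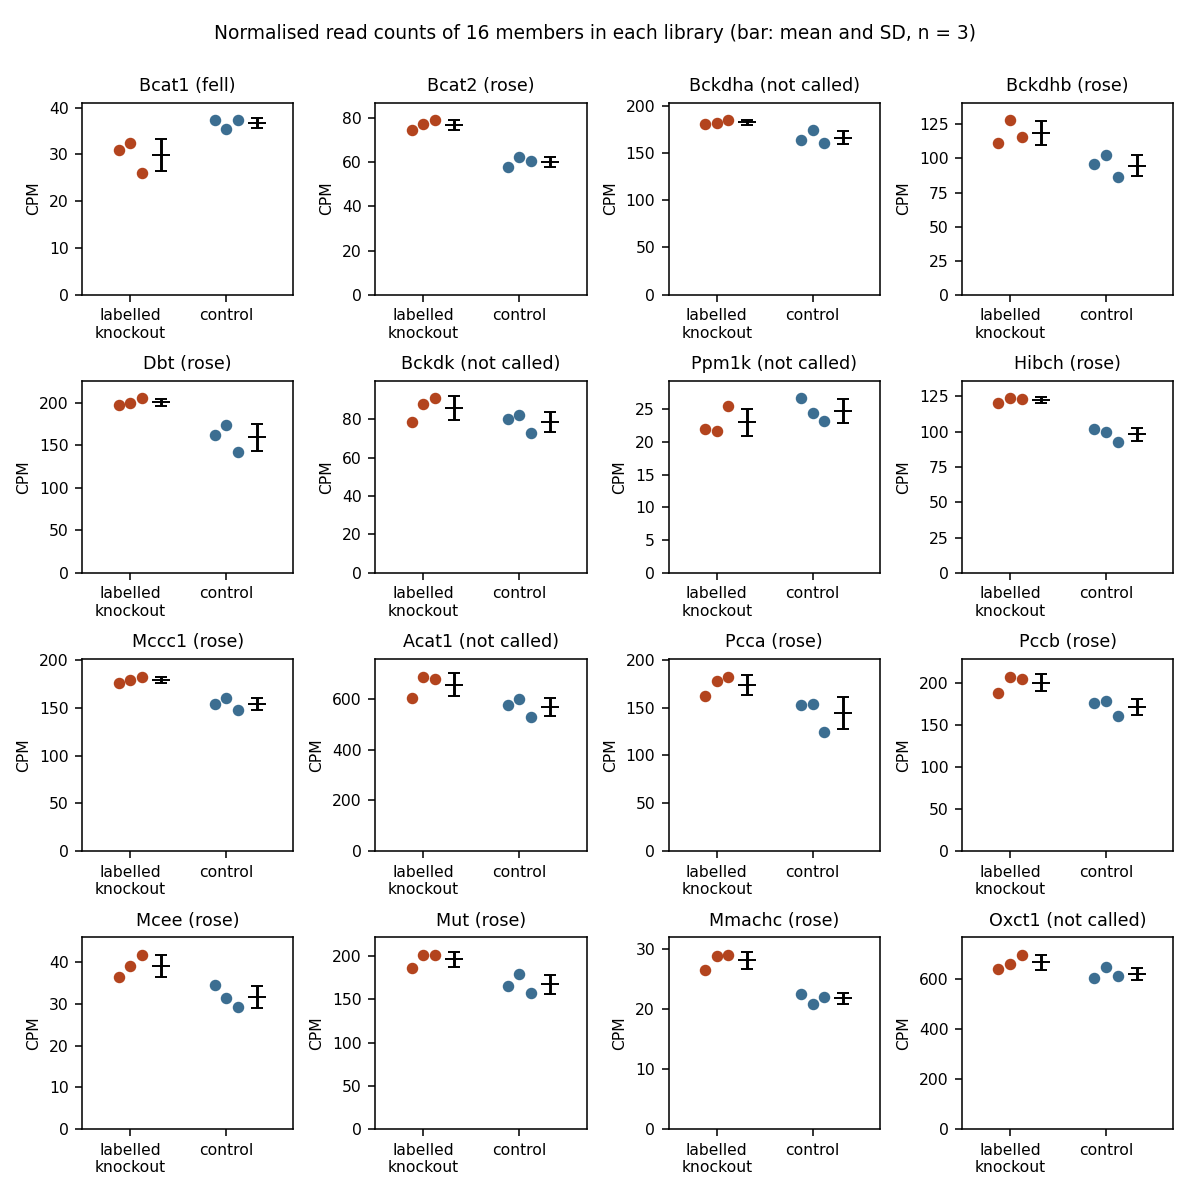
Normalised read count (CPM, y axis from 0) of 16 of the genes in each library, libraries labelled knockout at the left and controls at the right of each panel, with mean and SD (n = 3 each) as bars. Bcat2 and Bcat1 separate the groups in opposite directions, while Bckdk and Ppm1k overlap.

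In the valine arm 2 of 4 genes rose. Hibch, which releases 3-hydroxyisobutyrate from its CoA ester, stood at 120.1, 123.5 and 123.4 CPM in the libraries labelled knockout, against 101.6, 99.8 and 92.7 CPM in the controls. It rose 1.25-fold (log2 0.32, SE 0.0463, edgeR adjusted p 0.00194), with tight groups that lay far apart, and was called in every alternative. Hibadh, which oxidises 3-hydroxyisobutyrate, a metabolite that cells also release, stood at 150.0, 158.8 and 165.0 CPM in the libraries labelled knockout, against 132.9, 136.6 and 120.6 CPM in the controls. It rose 1.22-fold (log2 0.28, SE 0.0551, edgeR adjusted p 0.00848), and the call was lost without knockout 3 (0.0554). Aldh6a1, which makes propionyl-CoA from the next intermediate, averaged 202 ± 10.6 CPM in the libraries labelled knockout and 173.3 ± 18 CPM in the controls (SD, n = 3 each; edgeR adjusted p 0.0566). Its groups overlapped through control 2, and it was called without control 2 (0.00450) and by DESeq2 (adjusted p 0.0297). Acad8, the isobutyryl-CoA dehydrogenase, averaged 47.4 ± 2.08 CPM in the libraries labelled knockout and 42.4 ± 0.142 CPM in the controls (SD, n = 3 each; edgeR adjusted p 0.0570). Its groups did not overlap.

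In the leucine arm 1 of 4 genes rose. Mccc1, the biotin-carrying subunit of methylcrotonyl-CoA carboxylase, stood at 176.2, 178.8 and 182.8 CPM in the libraries labelled knockout, against 154.2, 160.8 and 147.4 CPM in the controls. It rose 1.16-fold (log2 0.22, SE 0.0438, edgeR adjusted p 0.00933), with no overlap, and the call was lost without knockout 3 (0.0615). Its partner subunit Mccc2 averaged 43.1 ± 3.33 CPM in the libraries labelled knockout and 39.1 ± 2.45 CPM in the controls (SD, n = 3 each; edgeR adjusted p 0.201), with overlapping groups. Per count of Mccc1, Mccc2 had 0.224, 0.244 and 0.252 counts in the libraries labelled knockout and 0.254, 0.258 and 0.248 in the controls, and this ratio overlapped too (exact two-sided permutation p = 0.2, adjusted over the 7 ratios 0.233). Ivd, the isovaleryl-CoA dehydrogenase, averaged 120 ± 2.41 CPM in the libraries labelled knockout and 115.4 ± 4.01 CPM in the controls (edgeR adjusted p 0.420). Auh, the methylglutaconyl-CoA hydratase, averaged 40.0 ± 1.85 CPM in the libraries labelled knockout and 38.9 ± 2.0 CPM in the controls (edgeR adjusted p 0.691). The upper ends of the 95% intervals of the log2 fold change were 0.15 for Ivd and 0.17 for Auh.

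In the isoleucine arm 0 of 3 genes were called by edgeR, with 2 at an unadjusted p under 0.05, 1 called by DESeq2 and 0 by limma-voom. Acat1, the mitochondrial thiolase that also serves ketone body use, stood at 603.8, 689.5 and 681.7 CPM in the libraries labelled knockout, against 577.2, 602.5 and 529.8 CPM in the controls. Knockout 1 lay just above control 2 and the groups did not overlap (log2 0.21, SE 0.0631, edgeR adjusted p 0.0535). Acat1 was called without knockout 1 (0.0251) or control 2 (0.0255), with library size alone (0.0476) and by DESeq2 (adjusted p 0.0187). Hsd17b10, a dehydrogenase of isoleucine breakdown that is also part of mitochondrial RNase P, averaged 71.8 ± 5.77 CPM in the libraries labelled knockout and 62.2 ± 3.62 CPM in the controls (SD, n = 3 each; edgeR adjusted p 0.0594). It was called without knockout 1 (0.0249) or control 2 (0.0399). Acadsb, the short/branched-chain acyl-CoA dehydrogenase, averaged 42.9 ± 2.03 CPM in the libraries labelled knockout and 40.8 ± 1.46 CPM in the controls, with overlapping groups (SD, n = 3 each; edgeR adjusted p 0.410). Whether the arms differed from each other in their change was not tested.

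All 4 genes of the route from propionyl-CoA to succinyl-CoA rose, and in none did the groups overlap. Pcca, the biotin-carrying alpha subunit of propionyl-CoA carboxylase, stood at 161.8, 177.3 and 182.3 CPM in the libraries labelled knockout, against 152.8, 154.2 and 124.6 CPM in the controls (1.21-fold, log2 0.27, SE 0.0771, edgeR adjusted p 0.0407). Pccb, its beta subunit, stood at 188.4, 207.6 and 204.6 CPM in the libraries labelled knockout, against 175.8, 178.8 and 161.2 CPM in the controls (1.16-fold, log2 0.22, SE 0.0531, edgeR adjusted p 0.0220). In both subunits control 3 was the lowest library, and in Pcca it lay far below the other 2 controls. Per count of Pcca, Pccb had 1.16, 1.17 and 1.12 counts in the libraries labelled knockout and 1.15, 1.16 and 1.29 in the controls, with overlap (exact two-sided permutation p = 0.6, also after adjustment over the 7 ratios). Mcee, the epimerase that prepares methylmalonyl-CoA for the mutase, stood at 36.4, 39.0 and 41.7 CPM in the libraries labelled knockout, against 34.4, 31.3 and 29.2 CPM in the controls (1.23-fold, log2 0.30, SE 0.0732, edgeR adjusted p 0.0226). Mut, the cobalamin-dependent mutase, stood at 185.9, 201.1 and 201.5 CPM in the libraries labelled knockout, against 166.0, 179.3 and 156.9 CPM in the controls (1.17-fold, log2 0.23, SE 0.0549, edgeR adjusted p 0.0211). Knockout 1 was the lowest library of its group in all 4 genes. All 4 calls were lost without knockout 2 (edgeR adjusted p 0.0645 to 0.116) or knockout 3 (0.106 to 0.168), those for Pcca, Pccb and Mut without control 1 (0.0533 to 0.0738), and those for Pcca and Mcee without control 3 (0.0578 and 0.0612). Their log2 fold changes then lay between 0.18 and 0.32.

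Of the 4 genes that process cobalamin for the mutase and for methionine synthase, Mmachc rose. It encodes the protein that strips the upper ligand from incoming cobalamin, and stood at 26.5, 28.9 and 29.1 CPM in the libraries labelled knockout, against 22.5, 20.8 and 22.1 CPM in the controls. The groups lay apart and the gene rose 1.29-fold (log2 0.37, SE 0.0670, edgeR adjusted p 0.00641), the largest fold change among the 12 genes that rose, with a call in every alternative. Mmaa, the chaperone that loads the mutase, averaged 21.1 ± 0.722 CPM in the libraries labelled knockout and 18.6 ± 1.05 CPM in the controls (SD, n = 3 each; edgeR adjusted p 0.130), with no overlap. Mmab, the adenosyltransferase, averaged 54.2 ± 1.00 CPM in the libraries labelled knockout and 53.9 ± 2.58 CPM in the controls, with an interval of the log2 fold change from −0.10 to 0.12 (edgeR adjusted p 0.938). Mmadhc, which directs cobalamin to the mitochondrion or the cytosol, averaged 97.0 ± 2.88 CPM in the libraries labelled knockout and 90.7 ± 5.29 CPM in the controls (SD, n = 3 each; edgeR adjusted p 0.246).

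The ketone body genes were not called. Of 2 tested, edgeR called 0, DESeq2 and limma-voom called 0 as well, and 1 had an unadjusted edgeR p under 0.05. Oxct1, which activates acetoacetate with CoA from succinyl-CoA and so commits ketone bodies to oxidation, stood at 638.4, 659.8 and 694.6 CPM in the libraries labelled knockout, against 603.6, 647.5 and 609.3 CPM in the controls. The groups overlapped through control 2, and the 95% interval of the log2 fold change ran from −0.01 to 0.21 (edgeR adjusted p 0.215). Aacs, which activates acetoacetate in the cytosol for lipid synthesis, averaged 208.1 ± 2.66 CPM in the libraries labelled knockout and 224.3 ± 6.2 CPM in the controls, and was lower in every library labelled knockout (log2 −0.11, edgeR adjusted p 0.105). Per count of Aacs, Oxct1 had 3.02, 3.2 and 3.36 counts in knockout 1 to 3, against 2.73, 2.8 and 2.77 in control 1 to 3 (exact two-sided permutation p = 0.1, adjusted over the 7 ratios 0.14). Bdh1, the hydroxybutyrate dehydrogenase, was the gene left out by the filter, with 8 counts in each library labelled knockout and 7, 2 and 11 counts in the controls, so no difference was detectable at this depth. In the authors' rounded FPKM, Oxct1 (173 to 185 in the libraries labelled knockout, 164 to 174 in the controls) and Acat1 (162 to 182 and 143 to 160, in the same order) were the most abundant of the 33 genes, and Bdh1 was listed at 0 in all 6 libraries.

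In GABA and lysine breakdown 1 of 4 genes rose. Gcdh, the glutaryl-CoA dehydrogenase of lysine and tryptophan breakdown, stood at 68.6, 69.3 and 70.4 CPM in the libraries labelled knockout, against 59.0, 59.2 and 54.5 CPM in the controls. It rose 1.21-fold (log2 0.27, SE 0.0481, edgeR adjusted p 0.00554), with groups that lay apart and a call in every alternative. Aldh7a1, which oxidises the lysine-derived semialdehyde, averaged 51.0 ± 4.68 CPM in the libraries labelled knockout and 51.7 ± 2.49 CPM in the controls (SD, n = 3 each; edgeR adjusted p 0.889). Dhtkd1, the E1 subunit of the 2-oxoadipate dehydrogenase, averaged 8.06 ± 0.231 CPM in the libraries labelled knockout and 7.04 ± 1.06 CPM in the controls (edgeR adjusted p 0.373). Abat, the GABA aminotransferase, which also acts on an intermediate of valine breakdown, was low at 5.80 ± 1.47 CPM in the libraries labelled knockout and 4.47 ± 0.990 CPM in the controls. It had the widest interval of the 32 tested genes, from −0.09 to 0.81 on the log2 scale (edgeR adjusted p 0.281).

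Genes next to these in the pathways were described by 5 lists, of which 36 of 46 genes were tested. Over all tested genes 6.91% rose and 5.44% fell. In the list of other genes around branched-chain breakdown, which holds steps shared with fatty acid oxidation, the carrier Slc25a44 and the transcription factor Klf15, 8 of 12 rose and 0 fell, with 9 at an unadjusted p under 0.05, all higher. Acaa2, a thiolase of fatty acid oxidation, averaged 1040 ± 104 CPM in the libraries labelled knockout and 738.5 ± 76.2 CPM in the controls (1.41-fold, edgeR adjusted p 0.00459). Acadm, the medium-chain acyl-CoA dehydrogenase, rose 1.32-fold (edgeR adjusted p 0.00726) and Dld, the E3 subunit that the keto acid dehydrogenase shares with the pyruvate and 2-oxoglutarate dehydrogenases, 1.29-fold (0.00734). Echs1, the enoyl-CoA hydratase, rose 1.28-fold (edgeR adjusted p 0.0176), a call lost without knockout 2 (0.0668) or knockout 3 (0.0882). In the list around lysine and GABA 4 of 5 rose. They were Dlst, the E2 subunit of the 2-oxoglutarate and 2-oxoadipate dehydrogenases (1.20-fold, edgeR adjusted p 0.0152), and the 3 genes that carry electrons from acyl-CoA dehydrogenases to ubiquinone, Etfdh (1.23-fold, 0.0119), Etfb (1.22-fold, 0.0175) and Etfa (1.24-fold, 0.0229). All 4 of these calls were lost without knockout 3 (edgeR adjusted p 0.0731 to 0.113), those for Etfa and Etfb without knockout 2 (0.0825 and 0.0682), and that for Etfa without control 1 (0.0560).

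In the other 3 neighbouring lists 0 genes rose and 2 fell, where 6.91% of all tested genes rose and 5.44% fell. Of 5 genes of ketone body synthesis and transport, edgeR, DESeq2 and limma-voom each called 0, and 0 had an unadjusted edgeR p under 0.05. Of 9 genes of biotin and cobalamin supply 0 rose and 1 fell, with 2 higher and 2 lower at an unadjusted p under 0.05. The gene that fell was Hlcs, which attaches biotin to the carboxylases, at 10.6 ± 0.418 CPM in the libraries labelled knockout and 12.8 ± 0.167 CPM in the controls (SD, n = 3 each; log2 −0.28, edgeR adjusted p 0.0483). Its call was lost without any 1 of the 6 libraries (0.0636 to 0.134). It was also lost with the replicate number as a block (0.0734) and with DESeq2 (adjusted p 0.215). Of 5 transporters of neutral amino acids at the plasma membrane 0 rose and 1 fell, with 2 lower at an unadjusted p under 0.05 and 1 called by each of DESeq2 and limma-voom. Slc7a5, the light chain of a transporter that carries leucine, averaged 147.7 ± 3.73 CPM in the libraries labelled knockout and 167 ± 8.28 CPM in the controls (log2 −0.18, edgeR adjusted p 0.0304). This call was lost without knockout 1, 2 or 3 (0.0552 to 0.148), control 1 (0.116) or control 3 (0.0868). Over all 5 lists 12 of the 36 tested genes rose and 2 fell. Those that rose numbered 5 without knockout 2, where 4.22% of all genes rose, 3 without knockout 3 (2.49%) and 7 without control 1 (4.17%).

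Within each group many genes of the pathway were lowest in the same library. Their median coefficient of variation was 4.69% in the libraries labelled knockout and 5.58% in the controls, against 5.34% and 6.01% over all tested genes in the same order. Of the 32 tested, 22 were lowest in knockout 1 among the libraries labelled knockout, and 22 were lowest in control 3 among the controls. The same count was not made over all tested genes, so it is not known whether the pathway differs from them here. As log2 level relative to the mean of all 6 libraries, the 32 genes averaged 0.04, 0.09 and 0.11 in knockout 1 to 3 and −0.07, −0.05 and −0.12 in control 1 to 3. The 12 adipocyte markers gave 0.05, 0.21 and 0.18 in knockout 1 to 3 and −0.10, −0.06 and −0.28 in control 1 to 3, so knockout 1 and control 3 were also lowest in their groups there. Their summed level was 13072 to 14980 CPM in the libraries labelled knockout and 11530 to 13766 CPM in the controls. Of the 8 tested fibroblast and preadipocyte markers 1 rose and 2 fell. Dlk1 rose (log2 0.72, edgeR adjusted p 0.00363), while Thy1 (−0.42, 0.00473) and Pdgfra (−0.38, 0.0134) fell. The markers summed to 7988 to 8386 CPM in the libraries labelled knockout and 8136 to 9327 CPM in the controls, with control 3 the highest. Most of this sum came from Col1a1 and Col3a1, which were not called. The summed brown and beige markers ran from 969.5 to 1126 CPM in the libraries labelled knockout and from 602.4 to 725.5 CPM in the controls, with knockout 1 and control 3 again the lowest of their groups. The part of these markers in the result was not tested. When 1 library was left out, the pathway's median log2 fold change ran from 0.17 to 0.22. It was 0.17 without control 3 or knockout 2, and 0.22 without knockout 1 or control 2.

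**Figure D3:**
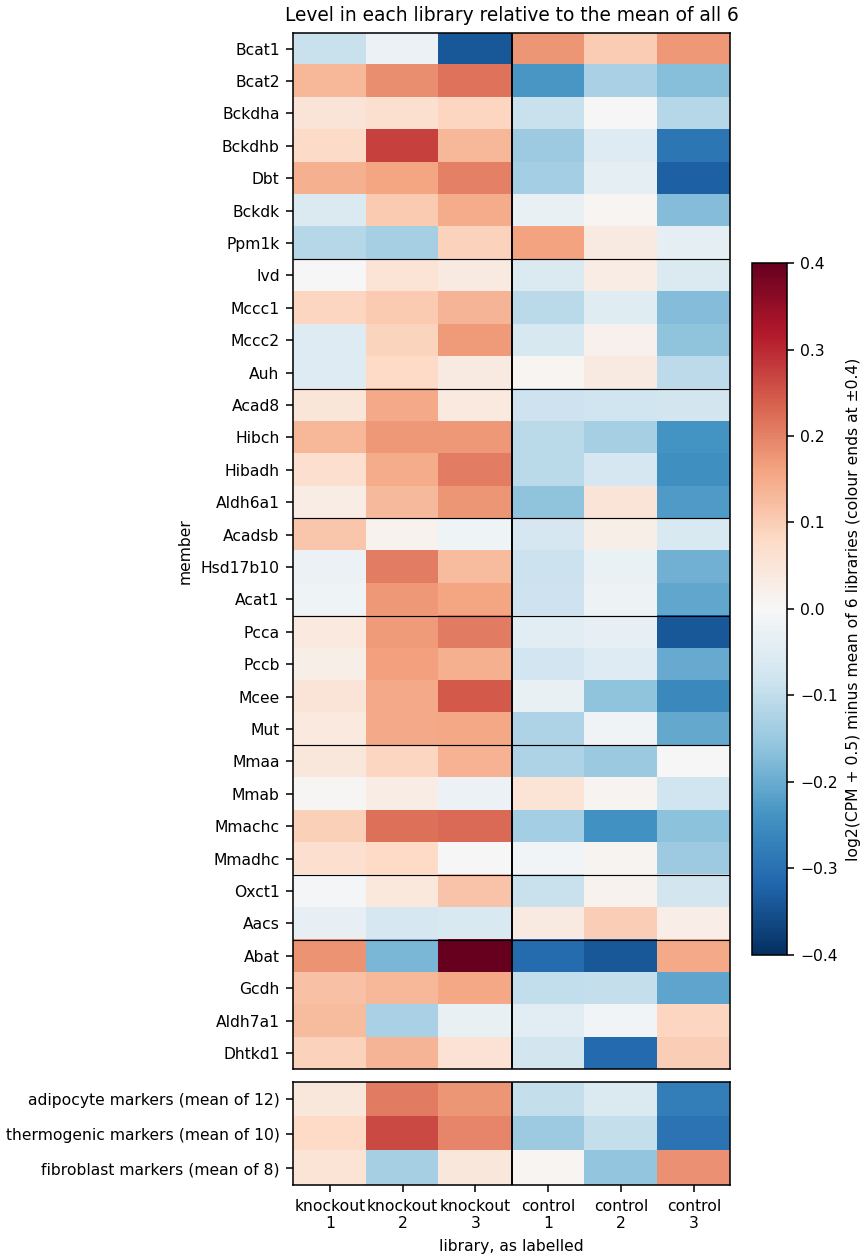
Level of each tested gene (rows) in each library (columns, libraries labelled knockout at the left, controls at the right) as log2(CPM + 0.5) minus the mean of the 6 libraries, with the mean of 3 marker lists below. Control 3 is the lowest control for 22 of the 32 genes and for the adipocyte markers, and the highest control for the fibroblast markers.

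Of the 13 calls, 6 held in all 12 alternatives, those for Bcat2, Bckdhb, Dbt, Hibch, Mmachc and Gcdh. Of the 19 tested genes that were not called, 15 were called in no alternative and 4 (Bckdha, Aldh6a1, Hsd17b10 and Acat1) in at least 1.

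**Figure D4:**
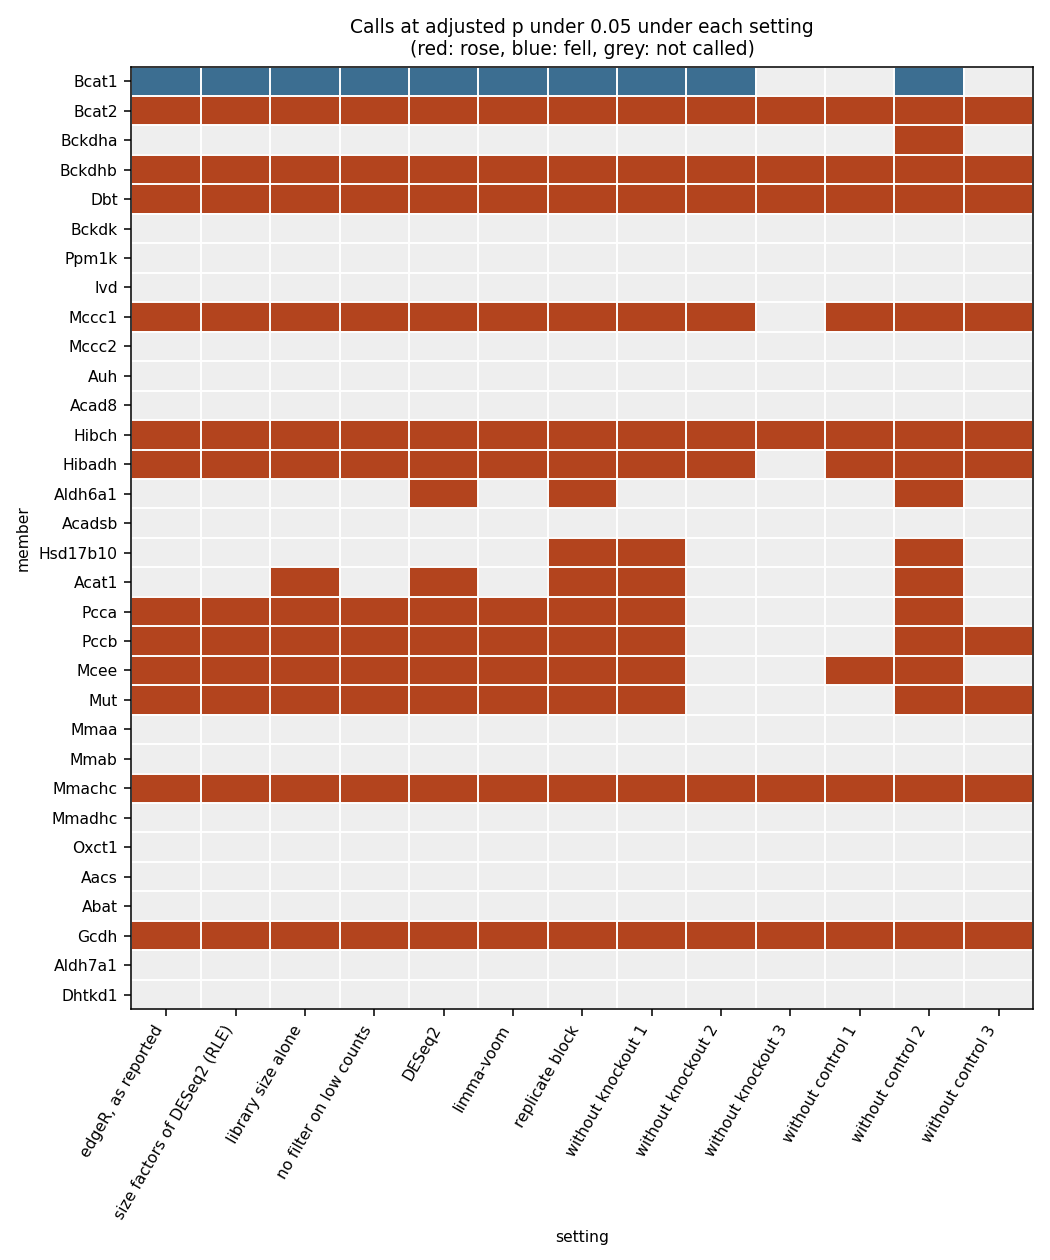
Calls at an adjusted p under 0.05 for each tested gene (rows) under the reported edgeR fit and 12 alternatives (columns), with red for rose, blue for fell and grey for not called. The 6 genes with red in every column are Bcat2, Bckdhb, Dbt, Hibch, Mmachc and Gcdh, and the 4 propionate genes turn grey without knockout 2 or knockout 3.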

How the data were processed

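RNA of 6 libraries was sequenced after poly(A) selection with a stranded kit, per the labels' protocols. Per the file headers, the authors deposited whole-number read counts by gene, and FPKM values that they rounded to whole numbers, used here as a score to compare levels between genes. The FPKM are listed by group, but differences between groups were tested on the counts only. Novoalign 2.8, Picard and DESeq2 were used with build mm9, per the submitters' processing notes. Their roles, the read counter, its annotation, its strand setting and its treatment of reads shared by similar genes were not given in the sources used here. In GENCODE M21, exons of 12 of the 33 genes overlap those of another gene, on the opposite strand except for a snoRNA in Hibadh. A single overlapping gene covered from 0.858% (in Mccc1) to 61.7% (in Bckdha) of the exon bases. The counts of these genes are therefore less certain, to differing degrees. Each listed gene had at least 10 counts in some library, so low genes had been left out before.

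The test was the quasi-likelihood test of edgeR 4.0.16 (R 4.3.3) on these counts, after its expression filter, which kept 13192 genes and left out 770, with TMM factors, the group as the only term and Benjamini-Hochberg adjustment over all tested genes at 0.05. CPM are given with SD. The SE is the log2 fold change over the square root of F. The biological coefficient of variation was 5.25%. Within both groups, each pair of libraries differed beyond counting noise (chi-square per degree of freedom from 2.88 to 7.53). The code was tested on simulated data.

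The alternatives were the size factors of DESeq2, library size alone, no filter, DESeq2 1.42.0, limma-voom (limma 3.58.1), the replicate number as a block, and leaving out each library. The genes, the lists and the rule for naming genes were chosen with earlier results of these data known. The rule gives library values for 12 genes chosen for their place in the pathway and the 12 called genes with the smallest adjusted p, and names up to 4 called genes of each neighbouring list, or all of 5 or fewer. The 7 ratios were added after the values were seen. Coordinates and promoters are those of RefSeq on GRCm38.p6, not of the build the authors used.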

Additional observations from a re-analysis of the deposited data

How the results depend on the processing

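The pathway's genes that rose numbered 12 with DESeq2 size factors (where 7% of all genes rose), without a filter (6.65%) and with limma-voom (6.87%). They numbered 13 with library size alone (6.52%) and 14 with DESeq2 (5.82%), and they included the same 12 genes each time. Over the fits that left out 1 library they numbered from 6 (without knockout 3, where 2.49% of all genes rose) to 16 (without control 2, where 7.68% did), and those that fell from 0 to 1, where 1 or 2 were lower at an unadjusted edgeR p under 0.05. Among the neighbouring genes, those that rose numbered from 3 to 12 and those that fell from 0 to 2 when 1 library was left out, with 3 to 5 lower at an unadjusted p under 0.05, and those that fell numbered 3 with library size alone (where 11 rose), 1 with DESeq2 and 1 with the replicate block. With the replicate block, where 7.82% of all genes rose, 15 genes of the pathway rose and 1 fell, with Aldh6a1, Hsd17b10 and Acat1 added. Deviations of same-numbered libraries from their group means correlated at -0.05, 0.22 and 0.03 over genes. Knockout 1 correlated best with control 3, at 0.27, while knockout 2 and knockout 3 did so with their own number. Deviations from the mean of so few libraries depend on each other. These values therefore cannot decide whether same-numbered libraries were paired, and the labels give only the number. No called gene of the pathway changed direction in any alternative. The scalings moved the median of all genes by at most 0.02 on the log2 scale. A fit without 1 library has fewer libraries, and the cause of each lost call was not tested. Depth limits Bdh1, at 2 to 11 counts a library, and Abat.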
